A study of Homo sapiens with 8 samples.

Results

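Bone morphogenetic protein (BMP) signalling in IMR90, a line of fibroblasts from human fetal lung, was described through 9 genes. BMP2, BMP4 and BMP6 encode ligands, GREM1 and NOG encode secreted antagonists, ID1, ID2 and ID3 are target genes and SMAD6 encodes an inhibitory SMAD. They were chosen by symbol, with the knowledge that BMP2 was higher with knockdown of ADAR1, and all 9 were found among the 57736 gene IDs of the files. In the files they are BMP2 (ENSG00000125845), BMP4 (ENSG00000125378), BMP6 (ENSG00000153162), GREM1 (ENSG00000166923), NOG (ENSG00000183691), ID1 (ENSG00000125968), ID2 (ENSG00000115738), ID3 (ENSG00000117318) and SMAD6 (ENSG00000137834). ADAR1 (gene ADAR) deaminates adenosines within RNA duplexes, and HuR (gene ELAVL1) recognises AU-rich stretches of mRNAs. One experiment was RNA-seq of total RNA, with 1 library of ADAR1 KD (knockdown) cells and 1 library of Ctrl cells. The other was RNA immunoprecipitation with an antibody against HuR in shADAR1, shHuR and shControl cells, and each of these 3 lines gave 1 precipitate and 1 input library. From its title, the series asks how the loss of ADAR1 bears on p16 and senescence. The labels give no passage, clone or time after knockdown, each line stands for 1 culture, and no mock precipitate was analysed here.

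BMP ligands are secreted dimers that bind pairs of type I and type II serine/threonine kinase receptors. The active receptors phosphorylate SMAD1, SMAD5 and SMAD9 (SMAD9 is also known as SMAD8), which enter the nucleus with SMAD4 and switch on target genes, among them the ID genes and the inhibitory SMADs. Gremlin 1 (GREM1) and noggin (NOG) bind the ligands outside the cell and keep them from their receptors, while SMAD6 blocks the pathway inside the cell, so that several targets of the pathway also restrain it. ID proteins dimerize with basic helix-loop-helix transcription factors and keep them from binding DNA, and ID1 is known in fibroblasts as a repressor of the p16 gene.

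The 250 bases before the start of ID1, ID2, ID3 and SMAD6 are shown because these target genes were higher together in ADAR1 knockdown cells. Sequences are from RefSeq on GRCh38.p14, read 5' to 3' in the direction of the gene. Capitals mark GTCT or its reverse complement AGAC, the core letters that SMAD proteins are known to contact.
ID1 upstream, chr20:31605039-31605288, forward strand: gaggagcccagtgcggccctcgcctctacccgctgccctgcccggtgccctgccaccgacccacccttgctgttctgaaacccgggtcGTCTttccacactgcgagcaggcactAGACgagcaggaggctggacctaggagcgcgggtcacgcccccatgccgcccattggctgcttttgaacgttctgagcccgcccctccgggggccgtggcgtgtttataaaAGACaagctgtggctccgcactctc
ID2 upstream, chr2:8681806-8682055, forward strand: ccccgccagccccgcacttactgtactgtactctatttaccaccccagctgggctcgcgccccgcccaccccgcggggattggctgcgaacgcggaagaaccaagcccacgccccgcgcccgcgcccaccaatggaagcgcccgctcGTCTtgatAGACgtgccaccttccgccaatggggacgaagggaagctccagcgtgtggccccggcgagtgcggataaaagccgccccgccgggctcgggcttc
ID3 upstream, chr1:23559502-23559751, reverse strand: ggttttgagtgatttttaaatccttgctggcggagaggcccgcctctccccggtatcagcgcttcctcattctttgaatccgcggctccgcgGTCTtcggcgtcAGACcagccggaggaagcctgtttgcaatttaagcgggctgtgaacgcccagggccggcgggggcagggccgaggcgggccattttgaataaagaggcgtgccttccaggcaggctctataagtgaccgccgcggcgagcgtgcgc
SMAD6 upstream, chr15:66701986-66702235, forward strand: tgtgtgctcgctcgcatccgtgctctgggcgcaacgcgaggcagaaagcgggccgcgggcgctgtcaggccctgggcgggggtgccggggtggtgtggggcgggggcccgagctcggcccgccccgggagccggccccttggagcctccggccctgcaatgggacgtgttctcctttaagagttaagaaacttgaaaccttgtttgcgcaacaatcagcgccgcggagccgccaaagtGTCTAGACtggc
ID1 held 3 such matches, and ID2, ID3 and SMAD6 held 2 each. Of 35116 promoter windows of the same length, 77.5% held at least 1, with a mean of 1.55 matches. In SMAD6 the matches stand side by side as GTCTAGAC, an 8-letter run found in 0.182% of the windows. GGCGCC, a GC-rich element known from BMP-responsive promoters, was in none of the 4 windows and in 16.4% of all windows. A match describes the letters only. Of the other genes, BMP4, BMP6 and GREM1 had entries in the table and are not shown. GGCGCC had 2 matches in 1 of the GREM1 windows and 1 match in 1 of the BMP4 windows.

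The second set of sequences bears on recovery with HuR. AUUUA is the core of AU-rich elements, and the windows of 30 bases below are from 3' untranslated regions (3' UTRs) of GENCODE 29 transcripts, with AUUUA in capitals and positions counted from the first base after the stop codon.
BMP2 3' UTR site, bases 291 to 320: gucagAUUUAuuuuguAUUUAUUUAcuauu
NOG 3' UTR site, bases 216 to 245: ggucccaguuuuaAUUUAcuuauuaaaagg
SMAD6 3' UTR site, bases 112 to 141: aucaucuaccuagAUUUAauauaaaguuuu
ID1 3' UTR site, bases 649 to 678: uauuaaacaaauaAUUUAgauggugguaaa
ID2 3' UTR site, bases 197 to 226: ugugauauucguuAUUUAugaaaaagacuu
ID3 3' UTR site, bases 363 to 392: uucuguugcccugAUUUAugaacucuauaa
BMP2 held 13 AUUUA matches, overlapping ones included, in a 3' UTR of 1191 bases. Among 2413 genes whose 3' UTRs were within 20% of that length, the median was 2 matches and 0.249% held as many. SMAD6 held 6 matches in 1313 bases, which 13.3% of like-length 3' UTRs reached. NOG held 3 in 668 bases and ID2 held 3 in 776 bases, reached by 17.6% and 22.9% of their like-length sets. ID1, ID3 and BMP4 held 1 match each, and BMP6 held 1 in 1079 bases. GREM1 has the longest 3' UTR of the 9, 13862 bases with 31 matches, and 44.0% of like-length 3' UTRs held as many.

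Total counts were 50711218 in the ADAR1 KD library and 39172819 in the Ctrl library, and ranged from 28390935 to 44578878 in the precipitation experiment. Levels are given as CPM, counts normalised to library size, after TMM scaling (by the trimmed mean of M values) within each experiment. ADAR was at 28.3 CPM in ADAR1 KD and 198 CPM in Ctrl, and at 84.3 CPM in the shADAR1 input and 247 CPM in the shControl input. ELAVL1 was at 14.0 CPM in the shHuR input and 92.1 CPM in the shControl input. All 9 fibroblast markers checked were detected in every library, and their summed level ranged from 3316 to 11760 CPM. Single markers moved past 2-fold. COL1A1 was 3.10-fold higher and DCN 2.44-fold lower in ADAR1 KD than in Ctrl. Against the shControl input, LUM was 4.15-fold and DCN 3.30-fold higher in the shADAR1 input. In the shHuR input LUM was 5.36-fold higher and COL1A1 2.46-fold lower than in shControl. The other fibroblast markers differed by less than 2-fold in these comparisons. Markers of other cells were partly detected. The 5 epithelial markers summed to 15.3 CPM in ADAR1 KD and 14.5 CPM in Ctrl, mostly CLDN4 and EPCAM, and to 0.664 to 1.48 CPM in the inputs, while KRT5 and SFTPC were at 0 counts in all 8 libraries. The 4 leukocyte markers summed to 47.0 CPM in ADAR1 KD and 44.6 CPM in Ctrl and to 21.0 to 24.4 CPM in the inputs, mostly CD68, and CD3E was at 0 counts in all 8 libraries. CD14, a monocyte marker, had 152 counts in the shADAR1 input, 15 in the shHuR input and 1 in the shControl input. The 3 smooth muscle markers summed to 36.8 CPM in ADAR1 KD and 57.9 CPM in Ctrl. In the inputs they summed to 48.5 CPM in shADAR1, 41.1 CPM in shHuR and 73.1 CPM in shControl. Of them, DES had 30 counts in the shADAR1 input, 7 in the shHuR input and 625 in the shControl input. In the RNA-seq DES had 97 counts in ADAR1 KD and 94 in Ctrl. The part of CD14, DES or the fibroblast markers in the values of the 9 genes was not tested.

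In the ADAR1 KD library, BMP2, both antagonists, all 3 ID genes and SMAD6 were higher than in the Ctrl library, and BMP4 was not. Each group held 1 library, so that these differences have no test, and the 95% intervals given with each log2 ratio cover counting error only. A gene was called higher or lower at 2-fold or more if either library held 50 counts or more. By that rule 7 of the 8 genes that reached the count minimum were called higher and none lower, while 8.31% of 13235 genes were called higher and 7.71% lower. The genes were chosen with this contrast known, so the count is a description. BMP2 reached the minimum only through the knockdown library, and BMP6 did not reach it in any library. In bulk RNA, fewer cells of a type and less RNA per cell cannot be told apart.

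BMP2, a ligand known for inducing bone and for its roles in lung and heart development, had 420 counts (8.23 CPM) in ADAR1 KD and 40 counts (1.03 CPM) in Ctrl. The log2 ratio was 3.00 (interval 2.53 to 3.51), or 8.02-fold. BMP4, its closest relative among the 3 ligands, had 176 counts (3.45 CPM) in ADAR1 KD and 112 counts (2.88 CPM) in Ctrl, with a log2 ratio of 0.26 whose interval, -0.09 to 0.62, includes 0. BMP6, a ligand best known for control of hepcidin in the liver, had 13 counts in ADAR1 KD and 3 counts in Ctrl, with a log2 ratio of 1.73 (interval -0.14 to 4.18). On the deposited FPKM scale, which accounts for transcript length, BMP2 was at 2.44 and BMP4 at 2.42 FPKM in ADAR1 KD, against 0.30 and 2.36 FPKM in Ctrl. The pair of ligands therefore stood at nearly the same level in the knockdown library, while in Ctrl BMP4 was the higher of them.

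GREM1 was the most abundant of the 9 genes per length, at 514 FPKM in ADAR1 KD and 231 FPKM in Ctrl. Its scaled level was 1738 CPM in ADAR1 KD and 853 CPM in Ctrl, a log2 ratio of 1.03 (interval 1.01 to 1.05) that lies just past the 2-fold limit at 2.04-fold. NOG was at 25.7 CPM in ADAR1 KD and 8.91 CPM in Ctrl, with a log2 ratio of 1.53 (interval 1.35 to 1.70). In FPKM, NOG was at 15.3 in ADAR1 KD and 5.38 in Ctrl, above BMP2 in both libraries. The antagonists were thus higher alongside the ligand.

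ID1 was at 88.0 CPM in ADAR1 KD and 14.4 CPM in Ctrl, with a log2 ratio of 2.61 (interval 2.49 to 2.74), or 6.12-fold. ID2, the most abundant ID gene per length (220 FPKM in ADAR1 KD and 51.4 FPKM in Ctrl), was at 242 CPM in ADAR1 KD and 57.6 CPM in Ctrl, with a log2 ratio of 2.07 (interval 2.01 to 2.14). ID3 was at 23.7 CPM in ADAR1 KD and 7.86 CPM in Ctrl, with a log2 ratio of 1.59 (interval 1.41 to 1.78). All 3 ID genes were at least 3.01-fold higher in the knockdown library. SMAD6 was at 7.90 CPM in ADAR1 KD and 3.16 CPM in Ctrl, with a log2 ratio of 1.32 (interval 1.03 to 1.63). In FPKM the order in ADAR1 KD was GREM1, ID2, ID1 (110), ID3 (25.0), NOG, SMAD6 (3.96), BMP2, BMP4 and BMP6 (0.10). With 1 library a group, no spread between libraries sets which neighbours in this order differ.

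The input libraries gave a second ADAR1 knockdown, in shADAR1 cells. BMP2, NOG, the ID genes and SMAD6 were again higher than in control cells. BMP4 was higher here, and GREM1 was lower. In all, 7 of the 8 genes that reached the count minimum were called higher in the shADAR1 input, where 9.14% of all genes tested were called higher and 10.3% lower. The called genes were not the same 7, since BMP4 took the place of GREM1. In both ADAR1 knockdowns together, which share no library, 6 of 8 genes were called higher, as were 177 of 12250 genes tested in both (1.44%). The genes were chosen with BMP2 known to be higher on ADAR1 knockdown, so these counts are a description and not an independent check.

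**Figure D1:**
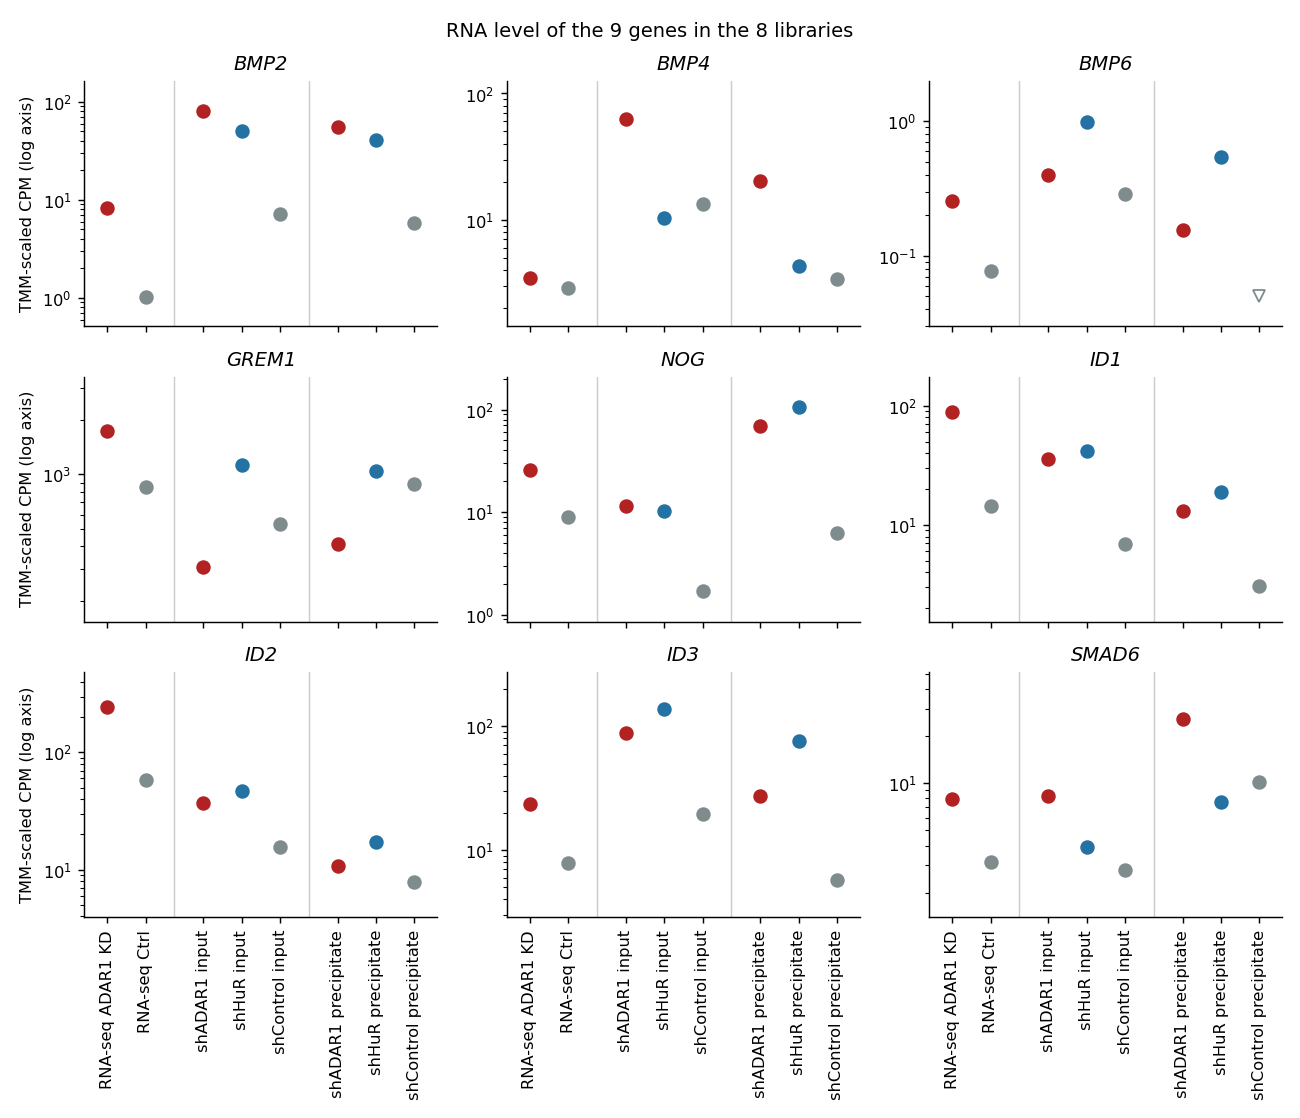
TMM-scaled CPM (log axis, its range set for each gene) of the 9 genes in the 8 libraries, 1 point a library, with knockdown cells in red (ADAR1) and blue (HuR) and control cells in grey. Grey lines part the RNA-seq, the inputs and the precipitates, and the open triangle marks BMP6 at 0 counts in the shControl precipitate. BMP2, NOG, ID1, ID2 and ID3 stand higher in every knockdown library than in the control library of the same kind, as does BMP6 at low counts.

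BMP2 was at 81.3 CPM in the shADAR1 input, 50.8 CPM in the shHuR input and 7.24 CPM in the shControl input. Against shControl the log2 ratio was 3.49 (interval 3.33 to 3.65) for shADAR1 and 2.81 (interval 2.65 to 2.97) for shHuR. Both ratios use the same shControl input, so they are not independent of each other. BMP4 was at 62.7 CPM in the shADAR1 input, 10.3 CPM in the shHuR input and 13.4 CPM in the shControl input. BMP4 thus stood apart in shADAR1 cells, with a log2 ratio of 2.23 (interval 2.10 to 2.35) against shControl, and in shHuR cells its log2 ratio was -0.39 (interval -0.56 to -0.22). BMP6 had 15 counts in the shADAR1 input, 48 in the shHuR input and 15 in the shControl input, which is under the count minimum.

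NOG was at 11.4 CPM in the shADAR1 input, 10.3 CPM in the shHuR input and 1.71 CPM in the shControl input. Its log2 ratio was 2.73 (interval 2.40 to 3.08) for shADAR1 and 2.60 (interval 2.27 to 2.94) for shHuR. GREM1 was at 306 CPM in the shADAR1 input, 1134 CPM in the shHuR input and 531 CPM in the shControl input. Of the 9 genes, GREM1 alone was lower in the shADAR1 input, with a log2 ratio of -0.79 (interval -0.83 to -0.76), or 1.73-fold, short of the 2-fold limit. In shHuR cells GREM1 was higher, with a log2 ratio of 1.10 (interval 1.08 to 1.12).

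ID1 was at 35.6 CPM in the shADAR1 input, 41.6 CPM in the shHuR input and 6.90 CPM in the shControl input. ID2 was at 37.1, 46.9 and 15.5 CPM in the inputs of shADAR1, shHuR and shControl cells. ID3 was at 88.3, 137 and 19.6 CPM in the same inputs. The shADAR1 and shHuR inputs thus both stood above the shControl input for every ID gene. The log2 ratios for shADAR1 were 2.37 (interval 2.20 to 2.54) for ID1, 1.26 (1.14 to 1.39) for ID2 and 2.17 (2.07 to 2.27) for ID3. Those for shHuR were 2.59 (2.43 to 2.76) for ID1, 1.60 (1.48 to 1.72) for ID2 and 2.80 (2.71 to 2.90) for ID3. SMAD6 was at 8.34 CPM in the shADAR1 input, 3.94 CPM in the shHuR input and 2.78 CPM in the shControl input. Its log2 ratio was 1.59 (interval 1.30 to 1.88) for shADAR1 and 0.50 (interval 0.19 to 0.83) for shHuR, which is under the 2-fold limit.

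**Figure D2:**
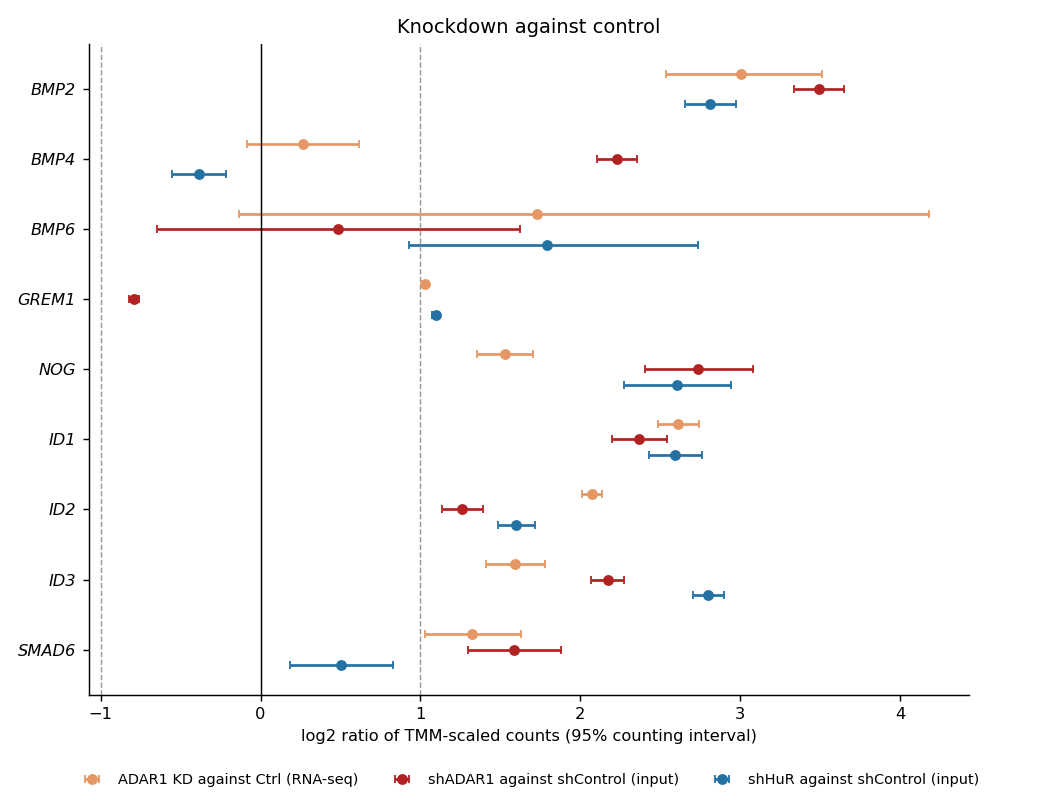
log2 ratio of TMM-scaled counts for each of the 9 genes, knockdown against control, as points with 95% intervals that cover counting error only, from 1 library a group. Dashed lines mark 2-fold in either direction. BMP2, NOG and the ID genes lie past the upper line in all 3 comparisons, BMP4 only for shADAR1, and GREM1 lies below 0 only for shADAR1.

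In the shHuR input 6 of the 8 genes that reached the count minimum were called higher and none lower, where 12.2% of all genes tested were called higher and 15.6% lower. They were BMP2, GREM1, NOG and the 3 ID genes. This count, too, describes genes that were chosen with earlier results of these data known. Set directly against the shADAR1 input, the shHuR input was called higher for 1 of 8 genes and lower for 2, where 5.24% of all genes tested were called higher and 9.67% lower. GREM1 was 3.71-fold higher in shHuR cells, with a log2 ratio of 1.89 (interval 1.86 to 1.92). BMP4 was 6.12-fold lower in shHuR cells, at -2.61 (-2.76 to -2.47), and SMAD6 was 2.12-fold lower, at -1.08 (-1.35 to -0.82), a call that was lost when the libraries were scaled by total counts, by DESeq2 size factors or with trends in GC content and length removed (-0.94). For NOG the interval of the log2 ratio, -0.32 to 0.06, includes 0.

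Other features of the cells moved with these libraries. MKI67, a marker of dividing cells that was chosen after its values were seen, was at 53.2 CPM in the shADAR1 input, 4.46 CPM in the shHuR input and 111 CPM in the shControl input. In the RNA-seq it was at 197 CPM in ADAR1 KD and 202 CPM in Ctrl. Of 7 endothelial markers, 6 were found in the files, and their summed level was 90.5 CPM in ADAR1 KD and 58.3 CPM in Ctrl. In the inputs the sum was 56.3 CPM in shADAR1, 27.1 CPM in shHuR and 15.3 CPM in shControl. Most of it was TEK, an endothelial receptor, and KDR, another, had 538 counts in ADAR1 KD and 74 in Ctrl but at most 2 in the other libraries. The other endothelial markers did not follow that sum in the inputs. In the shADAR1, shHuR and shControl inputs, VWF had 25, 21 and 70 counts, ROBO4 16, 11 and 56, and TIE1 5, 5 and 29. In the RNA-seq, TIE1 had 82 counts in ADAR1 KD and 127 in Ctrl, ROBO4 had 29 and 20, and VWF had 35 and 4. There VWF, at few counts, went with the sum, and TIE1 went against it. CDH5, which defines endothelium, was at 0 in every library. The part of MKI67 or of the endothelial markers in the values of the 9 genes was not tested.

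The remaining BMP pathway was read from a list of other genes, of which 51 were found. In the RNA-seq, 32 reached the count minimum, 9 were called higher in ADAR1 KD and 3 lower, where 8.31% of all genes tested were called higher and 7.71% lower, and the median log2 ratio was 0.05, against -0.01 over all genes tested. Of the 7 target genes tested, 5 were called higher and none lower. They were HES1, HEY1, ID4, ATOH8 and MSX1, which encode transcription regulators. HES1 had 260 counts in ADAR1 KD and 19 in Ctrl, a log2 ratio of 3.39 (interval 2.71 to 4.14), and ID4 had 695 counts in ADAR1 KD and 116 in Ctrl, a log2 ratio of 2.19. Of 8 receptors, 1 was called higher, ACVRL1, a type I receptor of endothelium, at 1.35. BAMBI, a pseudoreceptor that dampens the signal, was at 2.21, the inhibitory SMAD7 at 1.77 and the antagonist NBL1, with 17.8% of its exon length shared with another gene, at 1.28. The genes called lower were FSTL1 (-1.74), SMURF2 (-1.20), a ubiquitin ligase that targets SMADs, and RGMB (-1.88), a co-receptor with 45.6% of its exon length overlapped by exons on the opposite strand.

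In the shADAR1 input, 33 of the 51 genes reached the minimum, 14 were called higher and 2 lower, where 9.14% of all genes tested were called higher and 10.3% lower, with a median log2 ratio of 0.66, against -0.03 over all genes tested. Of the 7 target genes tested, 4 were called higher (ATOH8, MSX2, ID4 and MSX1) and HEY1 was called lower. None of the 8 receptors was called in either direction. The ligand BMP5 had 421 counts in shADAR1 and 37 in shControl, a log2 ratio of 3.99 (interval 3.51 to 4.52), while GDF5 had 30 counts in shADAR1 and 906 in shControl, at -4.43 (-5.01 to -3.91), with 35.2% of its exon length overlapped by exons on the opposite strand. GDF6 had 137 counts in shADAR1 and 6 in shControl, at 5.00 (3.84 to 6.47). BAMBI was at 3.01, SMAD7 at 1.53 and SMAD9, a receptor-activated SMAD, at 1.90. The modulators FSTL1 (1.45), BMPER (1.34), FST (1.31), TWSG1 (1.23) and SMURF2 (1.07) were also called higher, so that FSTL1 and SMURF2 stood on opposite sides of 0 in the 2 ADAR1 knockdowns. So did 2 targets called higher in the RNA-seq. With a prior count of 2, HEY1 was at 1.83 in the RNA-seq and -1.25 in the shADAR1 input. HES1 was at 3.27 in the RNA-seq and -0.26 in the shADAR1 input, where it was not called.

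**Figure D3:**
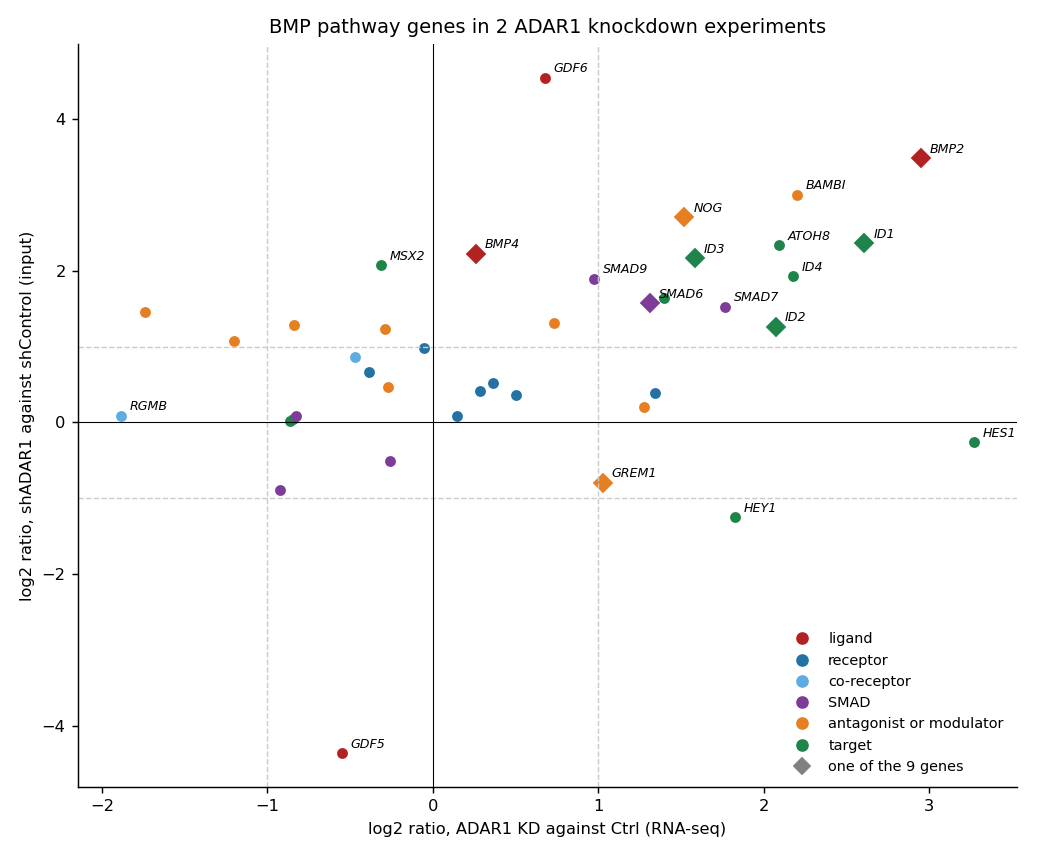
log2 ratio in the RNA-seq ADAR1 knockdown (horizontal) and in the shADAR1 input (vertical) for the 40 BMP pathway genes that reached the count minimum in both (prior count of 2), coloured by role, with diamonds for members of the set of 9. Dashed lines mark 2-fold. BMP2, NOG, the ID genes, SMAD6, BAMBI, ATOH8, ID4, MSX1 and SMAD7 lie in the upper right corner, and every receptor but ACVRL1 lies within the dashed lines.

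In the shHuR input, 31 reached the minimum, 9 were called higher and 5 lower, where 12.2% of all genes tested were called higher and 15.6% lower, with a median log2 ratio of 0.41, against -0.02 over all genes tested. Of the 6 target genes tested, 1 was called higher, ATOH8 at 2.69, and 2 lower, HES1 at -1.82 and RUNX2 at -1.47. The signal carriers SMAD1 (-1.47) and SMAD4 (-1.05) were called lower, as was GDF5 (-4.66). BMPER (3.00), BAMBI (2.62), FSTL1 (2.18), SMURF2 (1.92), SMAD7 (1.60), BMPR1B (1.42), BMP3 (1.07) and TWSG1 (1.06) were called higher. ID4 had 15 counts in shHuR and 30 in shControl, under the minimum, so that the fourth ID gene was not called here.

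The genes whose levels followed those of BMP2 most closely were ranked by Pearson's r over the 8 libraries, each experiment centred on its own mean, among 12469 genes. These values describe 8 libraries that differ in depth and kind, and carry no p. For BMP2 they were BAMBI (r = 0.988), ATRNL1 (0.988), CFTR (0.978), TSHZ2 (0.978) and ARSG (0.973). For ID1 they were VWA5A (0.991), TMEM140 (0.976), MAML3 (0.976), ATOH8 (0.975) and KCTD5 (0.970). BAMBI and ATOH8 are themselves genes of the BMP pathway list. BAMBI had 2304 counts in ADAR1 KD and 381 in Ctrl, and 1769, 1745 and 307 in the shADAR1, shHuR and shControl inputs. Among the 9 genes, r was 0.955 between ID1 and ID3, 0.924 between BMP2 and ID1, and -0.773 between BMP4 and GREM1.

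Recovery with HuR was taken as the level in the precipitate against that in the input, a contrast that was not used in choosing the genes. NOG and SMAD6 RNA was enriched in the precipitates, BMP4 and all 3 ID genes were depleted, and BMP2 and GREM1 did not pass the test. Over the 3 lines, edgeR's quasi-likelihood test with the line as block and Benjamini-Hochberg adjustment called 2 of the 9 genes higher and 4 lower at an adjusted p under 0.05. Of all 16232 genes tested, 30.3% were called higher and 31.3% lower, so 2 and 4 of 9 genes stand near the shares over all genes. These p-values rest on 1 culture a line and cover only the spread of enrichment among the 3 lines, part of which may be technical. The shADAR1, shHuR and shControl lines are unlike conditions, 1 of them with HuR itself knocked down, and not replicates of a condition. Without a mock precipitate, enrichment does not part binding to HuR from other recovery.

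NOG was at 68.7 CPM in the precipitate and 11.4 CPM in the input of shADAR1 cells, at 105 and 10.3 CPM in those of shHuR cells, and at 6.26 and 1.71 CPM in those of shControl cells. Every precipitate thus held more NOG RNA than its input. The log2 fold change was 2.67 (SE 0.36, n = 3 lines, edgeR adjusted p = 0.000127), or 6.37-fold. SMAD6 was at 25.7 CPM in the precipitate and 8.34 CPM in the input of shADAR1 cells, at 7.56 and 3.94 CPM in those of shHuR cells, and at 10.2 and 2.78 CPM in those of shControl cells. Its log2 fold change was 1.53 (SE 0.34, n = 3 lines, edgeR adjusted p = 0.00268). With libraries scaled by total counts instead, which moved the median of all genes by -0.86 to -0.99, SMAD6 was at 0.57 (edgeR adjusted p = 0.142), and without the shADAR1 line it was at 1.23 (edgeR adjusted p = 0.094).

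The ID genes went the other way. ID1 was at 13.1 CPM in the precipitate and 35.6 CPM in the input of shADAR1 cells, at 18.9 and 41.6 CPM in those of shHuR cells, and at 3.08 and 6.90 CPM in those of shControl cells. ID2 was at 10.6 and 37.1 CPM, 17.2 and 46.9 CPM, and 7.82 and 15.5 CPM in precipitate and input of the same lines. ID3 was at 27.3 and 88.3 CPM, 75.6 and 137 CPM, and 5.73 and 19.6 CPM. In each line the precipitate was below its input for all 3 genes. The log2 fold changes were -1.20 for ID1 (SE 0.31, edgeR adjusted p = 0.0059), -1.37 for ID2 (SE 0.32, edgeR adjusted p = 0.00353) and -1.39 for ID3 (SE 0.30, edgeR adjusted p = 0.0023). Without the shADAR1 line, ID1 was at -1.33 (edgeR adjusted p = 0.0788) and ID2 at -1.40 (edgeR adjusted p = 0.0645), a fit on 2 lines. With trends in GC content and transcript length removed within each line, ID1 was at -0.21 in shADAR1, -0.35 in shHuR and 0.55 in shControl, and ID3 was at -0.28, 0.10 and 0.0091 in the same lines. Neither ID1 nor ID3 was thus past 2-fold below its input in any line under that setting, while ID2 was at -1.47, -1.07 and -0.88. With those trends left in, ID3 in shHuR was already short of 2-fold, at -0.86.

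BMP4 was at 20.2 CPM in the precipitate and 62.7 CPM in the input of shADAR1 cells, at 4.35 and 10.3 CPM in those of shHuR cells, and at 3.41 and 13.4 CPM in those of shControl cells. Its log2 fold change was -1.57 (SE 0.32, edgeR adjusted p = 0.00177), with the precipitate below its input in each line. With trends in GC content and length removed, BMP4 was at -0.83 in shADAR1, -0.64 in shHuR and -0.95 in shControl, short of 2-fold in each line. BMP2, with the densest AUUUA content of the 9 genes as printed above, was at 55.0 CPM in the precipitate and 81.3 CPM in the input of shADAR1 cells, at 41.0 and 50.8 CPM in those of shHuR cells, and at 5.80 and 7.24 CPM in those of shControl cells. Its log2 fold change was -0.35 (SE 0.27, edgeR adjusted p = 0.28), and scaling by total counts gave -1.31 (edgeR adjusted p = 0.00158). Over the alternatives run, its log2 ratio ranged from -1.42 to -0.45 in shADAR1, -1.31 to -0.31 in shHuR and -1.19 to -0.24 in shControl. With trends in GC content and length removed, BMP2 was past 2-fold below its input in shADAR1. GREM1 was at 412 CPM in the precipitate and 306 CPM in the input of shADAR1 cells, at 1049 and 1134 CPM in those of shHuR cells, and at 881 and 531 CPM in those of shControl cells. Its log2 fold change was 0.40 (SE 0.26, edgeR adjusted p = 0.195), and scaling by total counts turned it to -0.56 (edgeR adjusted p = 0.0851), while without the shHuR line it was 0.62 (edgeR adjusted p = 0.0122). With trends in GC content and length removed, GREM1 was below its input in every line, at -0.92 in shADAR1, -1.26 in shHuR and -0.49 in shControl. BMP6 had 5, 11 and 0 counts in the precipitates of shADAR1, shHuR and shControl cells, and its log2 fold change was -1.63 (SE 0.85, edgeR adjusted p = 0.113).

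Within single lines, at the 2-fold limit, 2 of 8 genes were called higher and 4 lower in the shADAR1 precipitate, where 30.0% of all genes tested were called higher and 37.5% lower. In the shHuR precipitate 1 of 8 was called higher, NOG, and 3 lower, where 25.5% of all genes tested were called higher and 25.4% lower. In the shControl precipitate 2 of 8 were called higher and 3 lower, where 30.7% of all genes tested were called higher and 38.4% lower.

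**Figure D4:**
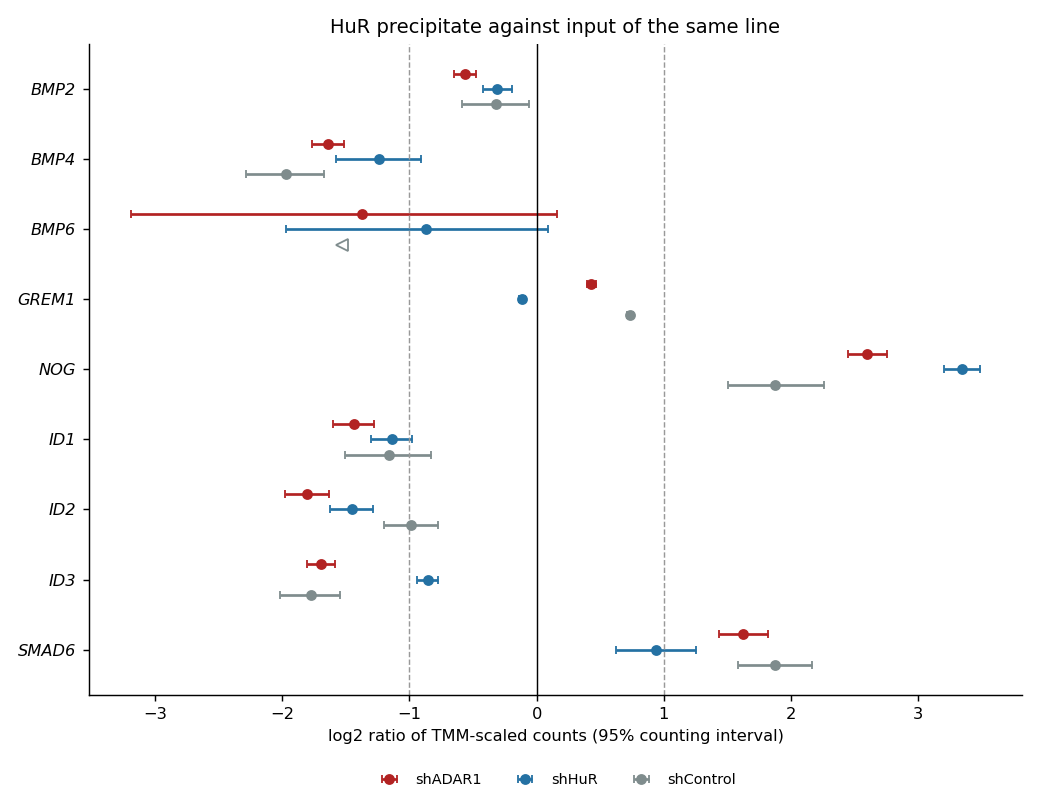
log2 ratio of precipitate against input in each line for the 9 genes, as points with 95% intervals that cover counting error only. Dashed lines mark 2-fold, and the open triangle is the upper bound for BMP6 in shControl, where the precipitate held 0 counts. NOG and SMAD6 lie above 0 in every line, BMP4 and the ID genes lie below 0, and GREM1 lies above 0 in shADAR1 and shControl and just below it in shHuR.

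Recovery was then compared between lines, called at 1.5-fold or more. In shADAR1 against shControl, 1 of 8 genes was called higher and 1 lower, where 19.7% of all genes tested were called higher and 14.2% lower. Neither count stands above the share over all genes. NOG enrichment was 2.60 in shADAR1 and 1.88 in shControl on the log2 scale, a difference of 0.72 (interval 0.33 to 1.11), which was 0.10 with trends in GC content and length removed. ID2 was at -1.81 in shADAR1 and -0.99 in shControl, a difference of -0.82 (interval -1.09 to -0.55). The other 6 genes differed by less than 1.5-fold, BMP2 by -0.24 (interval -0.51 to 0.03). With those trends removed, SMAD6 (-0.99) and ID1 (-0.75) were also past 1.5-fold, and ID2 was at -0.59.

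In shHuR against shControl, 3 of 8 genes were called higher and 2 lower, where 39.4% of all genes tested were called higher and 23.5% lower. These counts stand near the shares over all genes, whose median difference was 0.25 on the log2 scale. SMAD6 enrichment was 0.94 in shHuR and 1.87 in shControl, a difference of -0.93 (interval -1.35 to -0.51). GREM1 was at -0.11 in shHuR and 0.73 in shControl, a difference of -0.84 (interval -0.88 to -0.81). SMAD6 and GREM1 were the members past the 1.5-fold limit on that side, and ID2 was lower by less, at -0.47 (interval -0.73 to -0.20). NOG, the member with the highest enrichment, was at 3.34 in shHuR and 1.88 in shControl, a difference of 1.46 (interval 1.07 to 1.85). ID3 (difference 0.92, interval 0.67 to 1.17) and BMP4 (0.74, 0.29 to 1.18) were also called higher. None of the 3 was called higher with trends in GC content and length removed, where NOG differed by 0.54 and ID3 by 0.09. SMAD6 was then at -2.03, GREM1 at -0.78 and ID1 at -0.90, past 1.5-fold on the lower side.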

How the data were processed

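Expected counts per gene, as deposited, were estimated with RSEM 1.2.3 according to the submitters' processing notes. The genome builds named there are hg19 and, for the precipitation experiment, GRCh37. The deposited values are whole numbers and entered the count model unchanged. The RNA-seq file also holds FPKM values deposited by the authors (fragments scaled by length and depth). The same notes list DESeq2 for the RNA-seq. For the aligner, annotation release and strand setting, the entry is: not given in the sources used here. Therefore reads of a gene and an antisense partner cannot be told apart. Of the 9 genes, exon overlap with another gene was 1.3% for GREM1, 1.7% for ID2 and 0% for the rest.

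Groups were taken from the sample labels. Library pairs were compared as log2 ratios of TMM-scaled counts with exact conditional binomial intervals at 95%, a prior count of 2 in calls and list medians, and at least 50 counts in one library. Precipitates were tested against inputs with edgeR 4.0.16 (filterByExpr, TMM, line as block, 6 libraries, 2 residual degrees of freedom). Blocks follow the labels: a precipitate and an input of 1 line form a pair. The test was checked on simulated counts with less spread than these data (edgeR common dispersion 0.1), far fewer changed genes and no differences between lines. That check therefore does not show how the test performs here. Alternatives were DESeq2 1.42.0, other scalings, prior counts and filters, no block, leaving out each line, the FPKM values, and removal of trends in GC content and length. Genes named were the 9 genes, the pathway genes called in a comparison, and the 5 nearest genes by correlation to BMP2 and to ID1. The members and lists were chosen with earlier results of these data known. The listed gene GDF2 and the endothelial marker PECAM1 were not matched to an ID and were not analysed here. A further listed gene is not reported here.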

Additional observations from a re-analysis of the deposited data

Results flagged for a closer look

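GREM1 went in opposite directions in the 2 ADAR1 knockdowns. Its log2 ratio was 1.03 in ADAR1 KD against Ctrl in the RNA-seq and -0.79 in the shADAR1 input against the shControl input, each from 1 library a group, and the difference was not tested. GREM1 also lay on opposite sides of its input in the precipitates, with a log2 ratio of precipitate to input of -0.11 in shHuR cells and 0.73 in shControl cells. That difference was not tested either, and GREM1 was below its input in all 3 lines with trends in GC content and length removed (-0.92 in shADAR1, -1.26 in shHuR and -0.49 in shControl) and with scaling by total counts (-0.43 in shADAR1, -1.11 in shHuR and -0.14 in shControl).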

How the results depend on the processing

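In ADAR1 KD against Ctrl and in the shADAR1 and shHuR inputs against shControl, each of the 9 genes kept its sign under every alternative run. A count minimum of 10 raised the genes called to 3489 (from 2120) in the RNA-seq, 4016 (from 2562) in the shADAR1 input and 3339 (from 1941) in shHuR against shADAR1, where 2 members were then higher, as in enrichment in shADAR1 against shControl. Of the members, 1 was lower in shHuR against shADAR1 with total counts, DESeq2 size factors or GC and length trends removed. With total counts, members higher in the precipitate numbered 1 in shADAR1 and 0 in shControl, members lower 6 in shHuR and 5 in shControl, and 1 was higher over the 3 lines, where GREM1 turned to -0.56. That scaling moved the median enrichment of all genes by -0.86 in shADAR1, -0.99 in shHuR and -0.87 in shControl, and the shADAR1 input by -0.11. With GC and length trends removed, 2 members were lower in the precipitate in shADAR1 and 0 in shControl, where ID1 turned to 0.55 and ID3 to 0.0091. Between shADAR1 and shControl 2178 genes (from 4285) then differed in enrichment, with 0 members higher and 3 lower, and between shHuR and shControl 0 members were higher. Without the replicate block, which rests on the shared line, 6610 genes passed (10013 with it), 1 member higher and 0 lower. Leaving out 1 line gave 6420 to 11246 genes, 1 to 3 members higher and 2 to 4 lower, the fewest each time without the shADAR1 line. DESeq2 with the same block changed no member's call. The causes were not tested. With 1 library a group, depth limits BMP6 most, and no pair has a replicate check.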

Other observations

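Most receptors and signal carriers of the BMP pathway were called enriched in the HuR precipitates with TMM scaling. Over the 3 lines, edgeR's quasi-likelihood test called 20 of 36 other pathway genes higher in the precipitate and 4 lower, where 30.3% of all genes tested were higher and 31.3% lower. Of 8 receptors, 6 were higher and 1 lower. ACVR2A, a type II receptor, had a log2 fold change of 3.29 (SE 0.32, edgeR adjusted p = 1.83e-05), BMPR1B was at 3.07, ACVR2B at 2.82, BMPR2 at 2.20, BMPR1A at 1.57 and ACVRL1 at 1.55. Endoglin (ENG), an accessory receptor, was at -2.16 (SE 0.30, edgeR adjusted p = 0.000161). How the values here and below depend on scaling or on GC content and length is not reported here. Scaling by total counts moved the median enrichment of all genes by -0.86 in shADAR1, -0.99 in shHuR and -0.87 in shControl. As no mock precipitate was analysed, binding to HuR cannot be told from other recovery.

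Of the 5 SMADs on the list, 4 were higher in the precipitate: SMAD4 at 2.68, SMAD9 at 2.24, SMAD7 at 1.59 and SMAD5 at 1.07, while SMAD1 was at 0.13 (edgeR adjusted p = 0.753). RUNX2, a transcription factor of bone, was at 3.76 (SE 0.29, edgeR adjusted p = 1.02e-05). The target genes MSX1 (-1.44) and ATOH8 (-1.19) were lower, as were ID1, ID2 and ID3, but ID4 was higher at 1.16 (SE 0.44, edgeR adjusted p = 0.0402).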
